A study of Mus musculus with 12 samples.

Results

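The cytosolic ribosomal protein genes encode the proteins that build the small and the large subunit of the ribosome outside mitochondria. They were taken by name from the deposited count table, as all rows with a symbol of the form Rps or Rpl and a number, together with Rplp0, Rplp1, Rplp2 and Rpsa and without the S6 kinase genes. The rule gave 84 of the 23420 genes in the table, 33 of the small and 51 of the large subunit. RNA had been sequenced from monocytic myeloid-derived suppressor cells (M-MDSCs) of 6 young male mice, 6 months old, and 6 aged male mice, 24 months old, all C57BL/6JNIA and untreated as far as the labels say. The cells were sorted from bone marrow, with the tibia as the labelled tissue, as CD11b+Ly6G-Ly6Chi cells, and each mouse gave a library of its own. The sort defines M-MDSCs by surface markers alone, so it does not separate them from other immature monocytic cells. The libraries also held many fragments of neutrophil marker genes, as given below.

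Ribosomal proteins are made in nearly equal amounts, since every ribosome carries about a single copy of most of them, and proteins made in excess are degraded. In mammals their mRNAs start with a run of pyrimidines (the 5′ terminal oligopyrimidine tract, TOP), through which the kinase mTOR and the RNA-binding protein Larp1 control their translation together. Many of the genes have processed pseudogenes, copies of the spliced mRNA scattered over the genome, so that short reads from the gene can fit several places.

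The libraries of aged mice M-MDSCs held relatively more mRNA of nearly all measured ribosomal protein genes. After the filter on low counts, 78 of the 84 genes were tested, all 33 of the small subunit and 45 of the large subunit. Of these, 74 were higher in aged mice, 1 was lower and 3 were not called, by edgeR's quasi-likelihood test at an adjusted p of 0.05. Among all 9742 genes tested, 22.4% were higher and 23.0% lower. The median log2 fold change was 0.88 over the 78 genes and 0.01 over all genes tested. Short genes were generally higher in aged mice, and with the dependence on exon length taken out (the length correction) 60 of the 78 genes were higher, against 18.3% of all genes, and their median was 0.39. A fold change of at least 1.5 was found for 69 of the 74 genes and one of at least 2 for 15. The 6 aged mice lay above all 6 young mice for 61 of the 78 genes, against 9.68% of all genes tested.

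The rise was shared by both subunits. Of the small subunit genes, 30 were higher, 1 was lower and 2 were not called, with a median log2 fold change of 0.90. Of the large subunit genes, 44 were higher and 1 was not called, with a median of 0.86. After the length correction 24 of 33 and 36 of 45 were higher, with medians of 0.38 and 0.42. Small subunit genes made up 45.9% to 50.3% of the summed level of all 84 genes in young mice and 49.8% to 51.5% in aged mice, so the ranges overlapped.

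**Figure D1:**
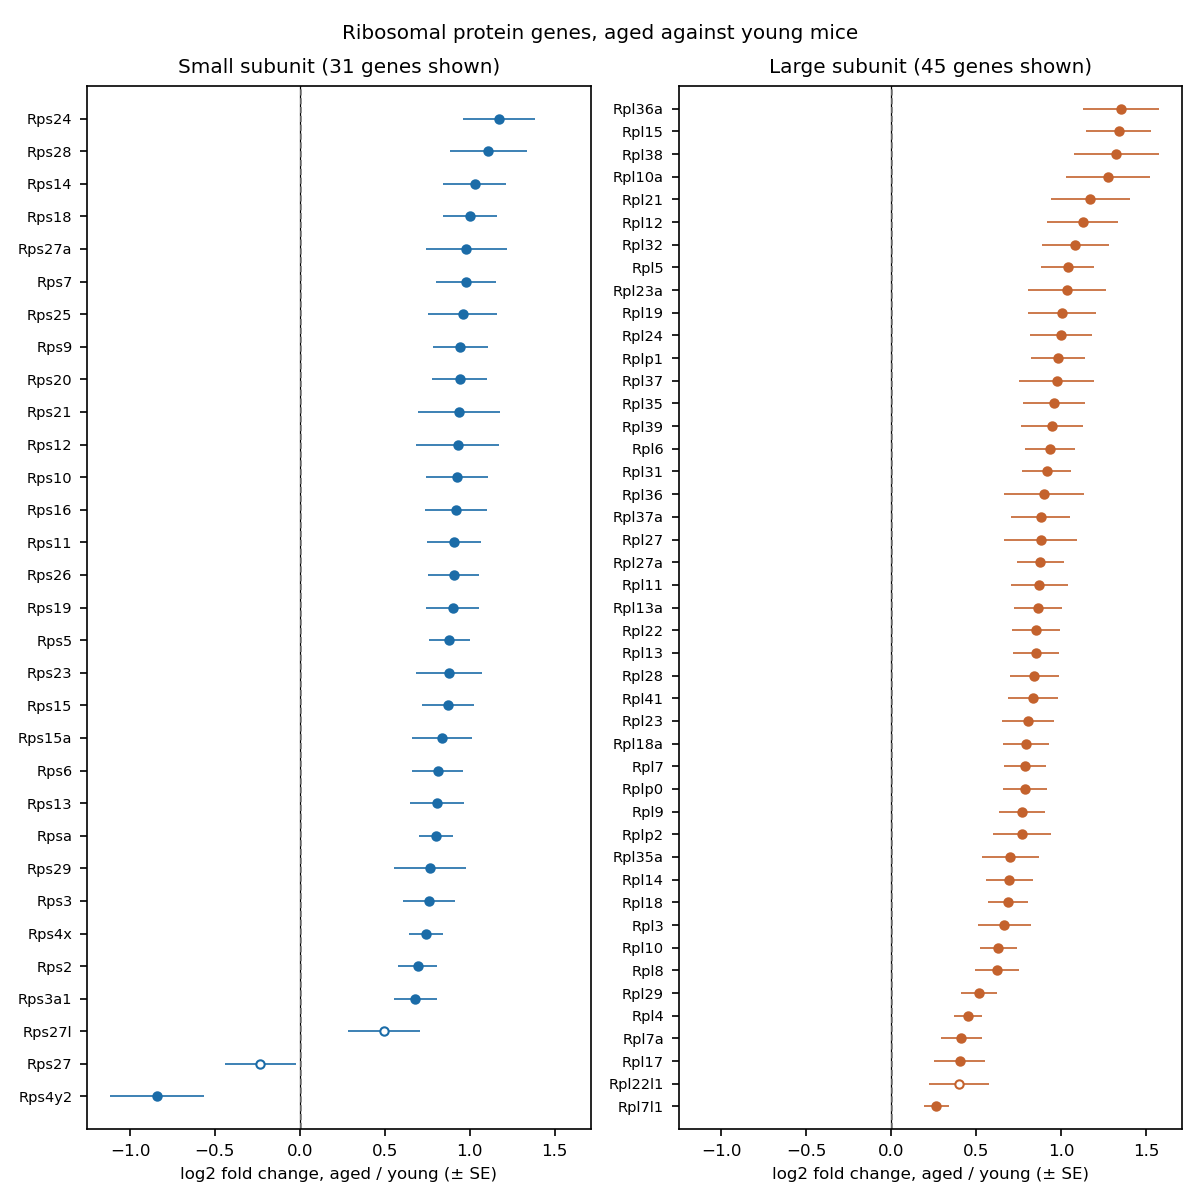
Log2 fold change of 76 tested ribosomal protein genes in aged against young mice (x axis), with its standard error, for the small subunit (left) and the large subunit (right). Filled points were called at an adjusted p of 0.05, open points were not, the solid line marks 0 and the dashed line the median of all genes tested (0.01). Apart from Rps4y2 and Rps27, all genes drawn lie to the right of 0.

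The start of the gene shows the sequence by which the mRNAs are grouped. RefSeq promoter sequences (build GRCm38.p6, the same assembly as mm10) were available for 63 of the 84 genes. A pyrimidine tract, written here as a C followed by at least 6 bases that are each C or T on the sense strand, lay within 50 bases of an annotated start in 54 of these 63 genes (85.7%) and in 44.5% of 27025 genes in the promoter table. The letters CCGGAAG, the core of the binding motif of ETS-family factors, were found on either strand within the 300 bases of 26 of the 63 genes (41.3%) and of 9.93% of all genes. Below are windows of 40 bases before to 30 bases after the annotated start on the gene's strand, with the tract in capitals. The first set holds genes that rose and whose tract spans or opens at the annotated start (for Rps24, the first of its annotated starts). Rpl15, Rpl38 and Rps24 are shown for their large rise, Rpl35 and Rpl27a for their long tract, Rps9 for the highest level and Rps6 as the substrate of the S6 kinases.
Rpl15 (chr14:18270957-18271026, minus strand): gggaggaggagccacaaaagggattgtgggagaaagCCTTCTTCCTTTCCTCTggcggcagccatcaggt
Rpl38 (chr11:114668540-114668609, plus strand): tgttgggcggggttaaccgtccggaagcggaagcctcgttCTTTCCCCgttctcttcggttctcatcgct
Rps24 (chr14:24490638-24490707, plus strand): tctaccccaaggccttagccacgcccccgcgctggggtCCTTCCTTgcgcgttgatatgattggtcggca
Rpl35 (chr2:39005102-39005171, minus strand): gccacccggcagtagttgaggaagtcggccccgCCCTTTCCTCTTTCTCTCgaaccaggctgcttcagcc
Rps9 (chr7:3704001-3704070, plus strand): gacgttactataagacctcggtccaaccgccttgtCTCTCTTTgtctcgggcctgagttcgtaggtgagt
Rpl27a (chr7:109519155-109519224, plus strand): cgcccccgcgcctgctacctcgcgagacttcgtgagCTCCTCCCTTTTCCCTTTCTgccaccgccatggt
Rps6 (chr4:86857338-86857407, minus strand): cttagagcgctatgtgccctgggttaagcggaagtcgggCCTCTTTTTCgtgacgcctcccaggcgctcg

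The second set holds the 3 genes that were not called and Rpl7l1, which had the smallest called rise.
Rps27 (chr3:90213619-90213688, minus strand): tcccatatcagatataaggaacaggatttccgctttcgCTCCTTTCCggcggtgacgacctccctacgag
Rpl22l1 (chr3:28805468-28805537, plus strand): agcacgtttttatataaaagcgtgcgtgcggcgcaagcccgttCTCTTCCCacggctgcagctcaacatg
Rps27l (chr9:66946046-66946115, plus strand): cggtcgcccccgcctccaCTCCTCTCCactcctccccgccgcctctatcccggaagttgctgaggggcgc
Rpl7l1 (chr17:46782627-46782696, minus strand): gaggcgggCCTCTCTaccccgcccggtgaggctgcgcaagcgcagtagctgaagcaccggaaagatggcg

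The first set was picked for its tract, so a tract was certain there. In the second set the tract spans the annotated start in Rps27 and begins 3 bases after it in Rpl22l1. In Rps27l and Rpl7l1 it lies wholly before that start, outside an mRNA that begins there. Among the 58 tested genes with a promoter sequence, the median log2 fold change was 0.88 in the 50 with a tract and 0.80 in the 8 without, and the values of the 8 (0.68 to 1.11) lay inside the range of the 50 (-0.23 to 1.35). The medians were 0.93 in 23 genes with CCGGAAG and 0.85 in 35 without. The 50 include genes, such as Rps27l and Rpl7l1, whose tract lies wholly before the start, so they are not a list of TOP mRNAs. All these values describe the letters near annotated starts and were not tested.

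The mice of each age did not vary alike. Levels are given as CPM, counts scaled to a common library total with TMM factors. The 84 genes together stood at 2070 to 3716 CPM in young mice (median 3090) and at 4482 to 5545 CPM in aged mice (median 5365), and the ages did not overlap. As raw counts this was 14404 to 32019 fragments, 0.227% to 0.369% of a library, in young mice and 47578 to 71544 fragments, 0.439% to 0.558%, in aged mice. The young mice fell into pairs of neighbouring numbers. The summed level was 2070 and 2119 CPM in young mice 5 and 6, 3093 and 3087 CPM in young mice 1 and 2, and 3702 and 3716 CPM in young mice 9 and 10. The labels do not say what neighbouring numbers share. The edgeR calls of this report treat the 6 young mice as independent. Without young mice 5 and 6, 71 of 79 tested ribosomal protein genes were higher in aged mice, against 14.1% of all genes tested. The median log2 fold change relative to all genes was then 0.62, against 0.87 with all mice. Aged mouse 7 had the lowest level of the aged mice, 4482 CPM, and the other 5 lay between 5194 and 5545 CPM.

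**Figure D2:**
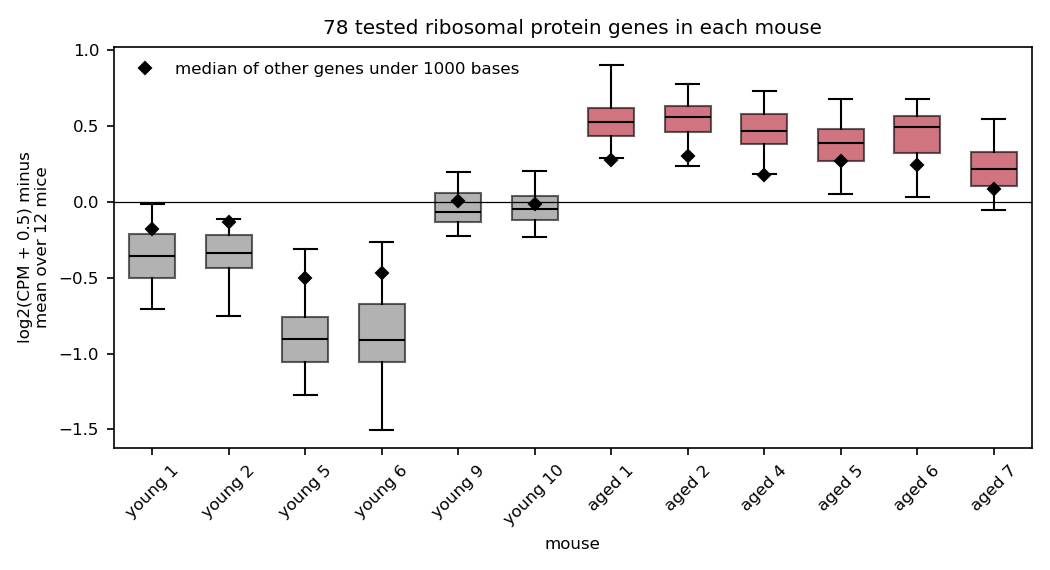
Log2(CPM + 0.5) of the 78 tested ribosomal protein genes in each mouse, minus each gene's mean over the 12 mice. Boxes give the quartiles and median, whiskers the 5th to 95th percentile, and diamonds the median of the other tested genes with under 1000 bases of exon. The boxes of young mice 5 and 6 lie lowest (medians -0.91 and -0.91), those of young mice 9 and 10 just under 0, and those of the 6 aged mice between medians of 0.22 and 0.56.

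Depth and marker genes of cell types also moved with age. Totals were 4613239 to 9079237 fragments in young mice and 8737941 to 16300374 in aged mice. When every library was thinned to the lowest of these totals, 73 ribosomal protein genes were higher in aged mice. Of 6 markers of classical monocytes, 2 (33.3%) were higher, against 22.4% of all genes tested. These were Cd14 (log2 fold change 1.11, adjusted p = 0.000249) and Ly6c2 (0.54, adjusted p = 0.00265). Itgam, which encodes CD11b, was lower (-0.22, adjusted p = 0.0285). Csf1r (0.07), Ccr2 (-0.26) and F13a1 (-0.36) were not called, and the median of the 6 was -0.07. The 6 markers summed to 3994 to 4180 CPM in young and 3425 to 4457 CPM in aged mice. After the correction for exon length described next, Cd14 was still higher (0.90), and Ly6c2 (0.12, adjusted p = 0.301) and Itgam (-0.05, adjusted p = 0.548) were not called. The sum of 8 neutrophil markers was higher than that of the monocyte markers in every library, although the sort removes Ly6G+ cells. The neutrophil sum was 76478 to 120094 CPM in young and 119905 to 142801 CPM in aged mice. It followed the pairs of young mice in the same order as the ribosomal protein sum, with 76478 and 77131 CPM in young mice 5 and 6, 102759 and 104032 CPM in young mice 1 and 2, and 117060 and 120094 CPM in young mice 9 and 10. Of the 8 markers, 5 (62.5%) were called higher in aged mice, against 22.4% of all genes tested, with a median log2 fold change of 0.41. After that correction 0 of 8 were called higher, against 18.3% of all genes, with a median of 0.06. Cxcr2, S100a8, S100a9 and Retnlg of this list are also among the genes by which the paper scored M-MDSCs. All 6 macrophage markers were higher in aged mice with and without that correction, against 18.3% and 22.4% of all genes. They summed to 29.1 to 45.6 CPM in young and 36.3 to 688 CPM in aged mice. Of 5 progenitor markers, 4 were tested and 3 (75%) were higher in aged mice, against 22.4% of all genes tested. These were Prtn3 (1.54, adjusted p = 9.54e-05), Elane (1.25, adjusted p = 0.00897) and Mpo (0.99, adjusted p = 0.00411). Corrected for length, Prtn3 (1.17) and Mpo (0.96) were still higher, Elane was not called (0.86, adjusted p = 0.0781) and Kit was called higher (0.27, adjusted p = 0.0272). The sum of the progenitor markers, 55.3 to 78.2 CPM in young and 62.5 to 82.7 CPM in aged mice, was mostly Kit, with means of 59.8 and 62.3 CPM. The plasma cell sum, 99.7 to 126 CPM in young and 117 to 170 CPM in aged mice, was mostly Xbp1, which is also made by other cells and was higher in aged mice (0.31, adjusted p = 0.00885), while Sdc1, Mzb1 and Tnfrsf17 did not pass the filter. Markers of erythroid cells summed to 0.12 to 0.47 CPM in young and 0.74 to 5.24 CPM in aged mice, without overlap, and Hba-a1 and Hba-a2 were at 0 in all libraries. Markers of B cells summed to at most 12.5 CPM and those of T and NK cells to at most 37.7 CPM in any library. The part of these cells and of depth in the rise of the ribosomal protein genes was not tested. The marker genes named from these lists were chosen after their values were seen. In bulk RNA, a change in the share of a cell type and a change in RNA per cell cannot be told apart.

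Exon length moved with the fold changes. Across all 9742 genes tested, Spearman's rho between log2 fold change and exonic length was -0.48, so short genes were higher in aged mice. Within single libraries, rho between the deviation from each gene's mean and exonic length was 0.17 to 0.43 in young mice. It was -0.45 to -0.13 in aged mice. The trend thus separated the ages fully, so a difference between libraries cannot be told apart from one of age. Genes are not independent replicates, and these values describe these libraries. The ribosomal protein genes tested have a median exonic length of 718 bases, against 2890 for all genes. Of the 669 other tested genes under 1000 bases, 55.8% were higher, with a median log2 fold change of 0.47. Of the 60 ribosomal protein genes under 1000 bases, 56 were higher, with a median of 0.89. All 18 tested ribosomal protein genes of at least 1000 bases were higher too, with a median of 0.82. When a smooth curve of each library on exonic length was taken out, the median over the 78 genes was 0.39 and that over all genes 0.02. Then 60 of the 78 genes were higher, against 18.3% of all genes, and 2 were lower, against 16.5%. The 18 longer genes were all still called higher, with a median of 0.61. Exonic length here adds up all annotated exons of a gene and can exceed the length of its mRNA. Where it does, the correction takes off too little, so these 18 genes do not settle how much of the rise remains. Rps15a, listed with 5134 bases, went from 0.84 to 1.04. The 14 genes that were called higher only without this correction included Rpl17, Rpl23a, Rpl29, Rpl35a, Rpl36, Rpl41, Rpl7a, Rplp2, Rps12, Rps21, Rps23 and Rps29.

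**Figure D3:**
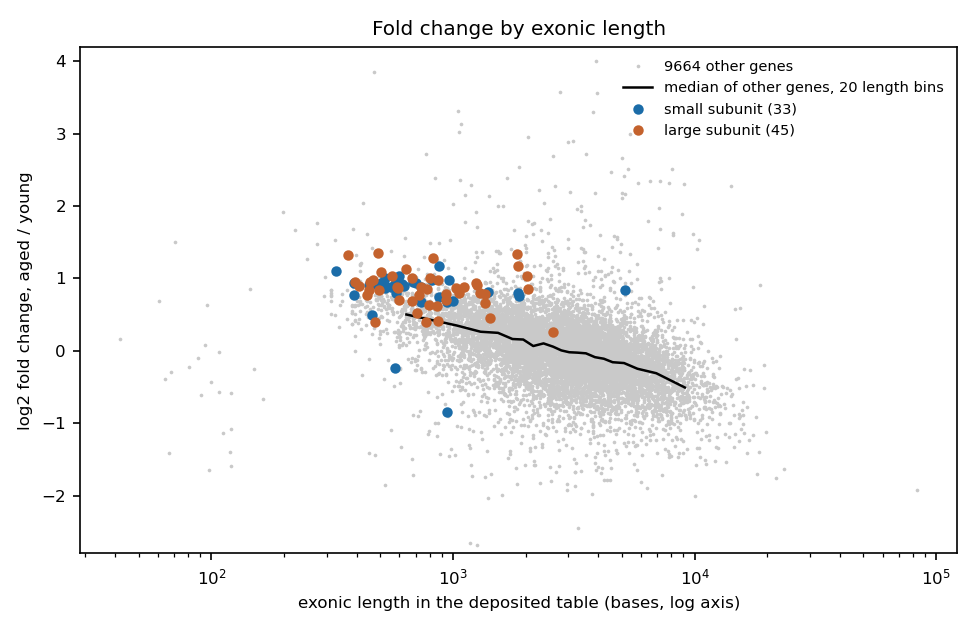
Log2 fold change in aged against young mice (y axis) and exonic length in the deposited table (x axis, log scale) for all genes tested, with the 33 small subunit genes in blue and the 45 large subunit genes in orange. The black line is the median of other genes in 20 bins of length and falls with length, and most ribosomal protein genes lie above it at their own length.

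The genes of the stalk and of the 5S particle are central parts of the large subunit. Rplp0 carries the stalk to which Rplp1 and Rplp2 bind and which recruits the elongation factors. Rplp0 was at 118 to 207 CPM in young mice (median 182) and 255 to 321 CPM in aged mice (median 297). All aged mice were above all young mice, and its log2 fold change was 0.79 (SE 0.13, adjusted p = 0.000323). Rplp1 rose from 23.9 to 46.5 CPM (median 39.2) to 54.3 to 86.2 CPM (median 72.7), with a log2 fold change of 0.98 (SE 0.16, adjusted p = 0.000273). Rplp2 was at 35.8 to 75.9 CPM (median 61.8) in young and 78.4 to 111.2 CPM (median 100.02) in aged mice, at a log2 fold change of 0.77 (SE 0.17, adjusted p = 0.00229). The young mouse with the highest Rplp2 was just below the lowest aged mouse, and after the length correction its log2 fold change was 0.13 (adjusted p = 0.145). Rpl5 and Rpl11 bind the 5S rRNA, and the free particle holds back Mdm2, which degrades p53. Rpl5 was at 11.3 to 22.6 CPM (median 14.6) in young and 25.9 to 37.3 CPM (median 35.0) in aged mice, with a log2 fold change of 1.04 (SE 0.16, adjusted p = 0.000173). Rpl11 was at 11.1 to 22.3 CPM (median 15.2) and 25.02 to 33.6 CPM (median 29.8), with a log2 fold change of 0.87 (SE 0.17, adjusted p = 0.000972). Neither overlapped between the ages. The length correction left Rplp0 at 0.55, Rplp1 at 0.35, Rpl5 at 0.94 and Rpl11 at 0.33, all still called.

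Without the length correction, the largest rises of the large subunit were those of Rpl36a, Rpl15, Rpl38 and Rpl10a. Rpl36a had the fewest counts of these, at 1.07 to 2.43 CPM (median 1.49) in young and 3.05 to 5.57 CPM (median 4.25) in aged mice, and 85.5% of its 50-base stretches also occur in transcripts of other genes. Its log2 fold change was 1.35 (SE 0.22, adjusted p = 0.000315). Rpl15, mutated in some families with Diamond-Blackfan anaemia, was at 3.91 to 9.23 CPM (median 5.90) in young and 13.2 to 21.4 CPM (median 14.3) in aged mice, at a log2 fold change of 1.34 (SE 0.19, adjusted p = 0.000123). Rpl38, which is needed for the translation of Hox mRNAs in the embryo, was at 2.65 to 11.8 CPM (median 7.90) and 15.8 to 20.8 CPM (median 18.2), a log2 fold change of 1.33 (SE 0.25, adjusted p = 0.000854). Rpl10a, which sits at the exit side for tRNA, overlapped slightly, at 2.36 to 8.05 CPM (median 4.95) and 7.95 to 15.1 CPM (median 13.04), with a log2 fold change of 1.28 (SE 0.25, adjusted p = 0.000956). Corrected for length, the log2 fold changes of Rpl36a, Rpl15, Rpl38 and Rpl10a were 0.73, 1.21, 0.67 and 0.86, all still called. Those of Rpl21 (1.04) and Rpl5 (0.94) were larger than all but that of Rpl15. Rpl15, Rpl21 and Rpl5 are listed with 1841, 1856 and 2019 exonic bases, and these ranks depend on those lengths. Rpl13a, which also leaves the ribosome to silence inflammatory mRNAs in myeloid cells, was at 43.0 to 77.1 CPM (median 63.6) in young and 84.8 to 121.4 CPM (median 116) in aged mice, with a log2 fold change of 0.86 (SE 0.14, adjusted p = 0.000304), or 0.53 corrected for length.

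The smallest called rises of the large subunit were those of Rpl7l1, Rpl17 and Rpl7a, and they overlapped between the ages. Rpl17, at the rim of the tunnel through which the new peptide leaves, was at 8.68 to 12.3 CPM (median 10.5) in young and 9.71 to 17.2 CPM (median 14.6) in aged mice, with a log2 fold change of 0.40 (SE 0.15, adjusted p = 0.0386). It was the only one of the 74 genes that lost its call when single mice were left out, namely without young mouse 2, 5 or 6 or aged mouse 1, 2, 4 or 6 (log2 fold changes of 0.34 to 0.41, adjusted p of 0.0558 to 0.0897). The call of Rpl17 was also lost by limma-voom (0.36, adjusted p = 0.079), with library totals without TMM (0.32, adjusted p = 0.092) and with thinned libraries (0.47, adjusted p = 0.0722). Rpl7a was at 14.6 to 20.5 CPM (median 18.4) and 19.8 to 32.1 CPM (median 22.8), with a log2 fold change of 0.41 (SE 0.12, adjusted p = 0.0125). After the length correction Rpl17 and Rpl7a were at -0.06 (adjusted p = 0.756) and 0.00 (adjusted p = 0.978). Without young mice 5 and 6, Rpl7a was not called (0.29, adjusted p = 0.0962), nor was Rpl17 (0.29, adjusted p = 0.2).

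Without the length correction, the largest rises of the small subunit were those of Rps24, Rps28, Rps14 and Rps18. Rps24 was at 25.4 to 70.5 CPM (median 48.7) in young and 95.5 to 118 CPM (median 112) in aged mice, at a log2 fold change of 1.17 (SE 0.21, adjusted p = 0.000632). Rps28 was at 4.38 to 13.3 CPM (median 12.01) and 17.1 to 26.2 CPM (median 21.9), a log2 fold change of 1.11 (SE 0.23, adjusted p = 0.00138). Rps14, whose loss of a copy in humans marks the 5q- syndrome, was at 53.3 to 117 CPM (median 98.9) and 147 to 217 CPM (median 179), with a log2 fold change of 1.03 (SE 0.19, adjusted p = 0.000643). Rps18, a protein of the head of the subunit, was at 9.98 to 19.6 CPM (median 13.8) and 22.9 to 33.3 CPM (median 27.9), with a log2 fold change of 1.002 (SE 0.16, adjusted p = 0.000235). None of these overlapped between the ages. Corrected for length, Rps24 was at 0.80, Rps28 at 0.41, Rps14 at 0.52 and Rps18 at 0.41, all still called. Rps15a then had the largest log2 fold change of the subunit (1.04, against 0.84 uncorrected). It is listed with 5134 exonic bases, and its rank rests on that length. Rps19, the gene most often mutated in Diamond-Blackfan anaemia, was at 16.7 to 35.3 CPM (median 24.0) in young and 41.0 to 56.1 CPM (median 46.3) in aged mice, with a log2 fold change of 0.90 (SE 0.16, adjusted p = 0.00048). Rps6, which the S6 kinases phosphorylate downstream of mTOR, was at 24.5 to 49.8 CPM (median 34.0) and 57.8 to 70.6 CPM (median 63.7), with a log2 fold change of 0.81 (SE 0.15, adjusted p = 0.000723). Rps19 and Rps6 were at 0.39 and 0.58 with the length correction, both still called.

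The smallest p-values of the small subunit belonged to genes of moderate rise and small standard error. Rpsa, also known as a laminin receptor, was at 60.1 to 94.0 CPM (median 79.8) in young and 123 to 152 CPM (median 139) in aged mice, with a log2 fold change of 0.80 (SE 0.10, adjusted p = 4.52e-05). Rps4x, encoded on the X chromosome, was at 50.1 to 74.8 CPM (median 66.0) and 89.8 to 122 CPM (median 108), with a log2 fold change of 0.74 (SE 0.10, adjusted p = 8.23e-05). The length-corrected values of Rpsa and Rps4x were 0.67 and 0.34, both still called.

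Groups of genes by place in the ribosome and by disease were mostly higher in aged mice, as were 94.9% of all 78 genes, against 22.4% of all genes tested. All 3 stalk genes, both genes of the 5S particle, the 8 tested of 9 genes at the rim of the exit tunnel and the 4 genes of the decoding centre and mRNA channel (Rps2, Rps3, Rps15 and Rps23) were higher in aged mice, with median log2 fold changes of 0.79, 0.96, 0.95 and 0.82. Of 18 genes linked to Diamond-Blackfan anaemia, 17 were tested, 16 were higher and Rps27 was not called, with a median of 0.91. With length taken out, 2 of the 3 stalk genes, both genes of the 5S particle, 6 of the 8 tunnel genes, 3 of the 4 decoding genes and 13 of the 17 genes linked to Diamond-Blackfan anaemia were higher and 1 of the 17 lower, with medians of 0.35, 0.64, 0.53, 0.33 and 0.38, against 0.39 for all 78 genes. Of the 78 genes 76.9% were then higher, and of all genes tested 18.3%.

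A single gene was lower in aged mice. The row Rps4y2 is the RefSeq gene Rps4l (chr6:148354656-148355596, plus strand, a single exon), which RefSeq annotates as a transcribed pseudogene and not as a protein-coding gene. It was at 3.56 to 5.09 CPM (median 4.31) in young mice. In aged mice it was at 1.497 to 5.36 CPM (median 2.01), where 5 mice lay at 1.497 to 2.38 CPM, below all young mice, and aged mouse 2 lay at 5.36 CPM, above them. The log2 fold change was -0.84 (SE 0.28, adjusted p = 0.0222), and it was -1.22 after the length correction. Its call was lost without aged mouse 6 (-0.73, adjusted p = 0.0516) and without young mice 1 and 2 (-0.81, adjusted p = 0.0608) or young mice 9 and 10 (-0.82, adjusted p = 0.0641).

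Rps27 had the other log2 fold change below 0. This zinc finger protein of the small subunit was at 3.22 to 7.05 CPM (median 5.21) in young and 3.26 to 6.10 CPM (median 4.40) in aged mice, and the ages overlapped fully. Its log2 fold change was -0.23 (SE 0.21, adjusted p = 0.378), and -0.84 (adjusted p = 0.0145) after the length correction. Only part of this gene could be counted. In the annotation used for counting, 60% of its exonic bases (chr3:90212667-90213648) also belong, on the same strand, to the row Gm9846, and a fragment that fits both rows is assigned to neither under the counting options given in the file header. Gm9846 itself had no count in any library.

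The same overlap holds for 3 of the 6 genes that did not pass the filter. Rpl26 (chr11:68901566-68904534) shares 95.8% of its exonic bases with Gm15772 and was listed at 0 in all 12 libraries. Rpl30 (chr15:34440508-34443276) shares 76.0% with Gm12191 and had 37 counts in all. Rpl34 (chr3:130726831-130730308) shares 67.2% with Rpl34-ps1 and had 109 counts in all, 0.21 to 1.42 CPM in young and 0.56 to 1.45 CPM in aged mice. The partner rows had 0, 0 and 2 counts. No other ribosomal protein gene shared more than 0.1% of its exonic bases with another row. The low values of these 4 genes are therefore values of the bases left over, and no level of the mRNA can be read from them. The remaining 3 genes below the filter, Rpl3l, Rpl10l and Rpl39l, are tissue-restricted paralogs that share no exonic base with another row, and had 33, 0 and 15 counts in all.

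Paralogs let levels within a pair be compared in each mouse. In 7 pairs, both genes passed the filter in 4, and the log2 ratio of their counts (pseudocount 0.5) was compared between ages by an exact two-sided permutation test over the 12 mice, with Benjamini-Hochberg adjustment over the 4 pairs. The smallest p this design allows is 0.00216. The test treats the mice of an age as independent, while the young mice fell into pairs of neighbouring numbers. Rpl7l1, a paralog of Rpl7, was at 40.3 to 52.0 CPM (median 46.5) in young and 51.0 to 59.1 CPM (median 56.7) in aged mice, at a log2 fold change of 0.26 (SE 0.07, adjusted p = 0.00862), which was 0.18 (adjusted p = 0.0578) without young mice 5 and 6. Rpl7, a protein of the large subunit, rose by more, from 53.3 to 94.9 CPM (median 77.6) to 112 to 142 CPM (median 133), a log2 fold change of 0.79 (SE 0.12, adjusted p = 0.000243). Their log2 ratio was -0.68 ± 0.22 (SD, n = 6) in young and -1.23 ± 0.09 (SD, n = 6) in aged mice. All aged mice were below all young mice, with a difference of -0.55 (exact permutation p = 0.00216, adjusted p = 0.00433). Rpl7l1 has the longer exons, and after the length correction the difference was -0.19 (adjusted p = 0.00866).

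The ratio of Rps4y2 to Rps4x also fell. It was -3.84 ± 0.22 in young and -5.56 ± 0.68 in aged mice (SD, n = 6 each), without overlap, a difference of -1.71 (exact permutation p = 0.00216, adjusted p = 0.00433), and -1.69 after the length correction (adjusted p = 0.00866). Per kb of exon, Rps4y2 made up 6.06% ± 0.89 of the pair in young and 2.10% ± 1.14 in aged mice.

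Rpl22 and Rpl22l1 encode alternative versions of a large subunit protein, and Rpl22 represses the expression of Rpl22l1. Rpl22 rose from 4.79 to 7.63 CPM (median 6.52) to 9.02 to 13.5 CPM (median 12.01), a log2 fold change of 0.85 (SE 0.14, adjusted p = 0.000372). Rpl22l1 was at 2.36 to 4.97 CPM (median 3.68) in young and 4.13 to 6.36 CPM (median 5.06) in aged mice, with a log2 fold change of 0.40 (SE 0.18) that was not called (adjusted p = 0.0752). It was called without young mouse 9 (0.50, adjusted p = 0.0372) or aged mouse 7 (0.46, adjusted p = 0.0483) and with an offset for GC content (0.49, adjusted p = 0.0363), and the length correction turned it to -0.26 (adjusted p = 0.281). Their log2 ratio was -0.76 ± 0.41 (SD, n = 6) in young and -1.19 ± 0.13 (SD, n = 6) in aged mice. The difference of -0.42 missed the threshold after adjustment (exact permutation p = 0.0455, adjusted p = 0.0606), and young mouse 2, at -1.45, lay below all aged mice. Without that mouse the difference was -0.56 (adjusted p = 0.00433), and with the length correction it was -0.97 (adjusted p = 0.00866).

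Rps27l, a target of p53, was at 4.07 to 10.6 CPM (median 8.57) in young and 8.98 to 12.4 CPM (median 10.4) in aged mice, with a log2 fold change of 0.50 (SE 0.21, adjusted p = 0.0663). It was called without young mouse 9 (0.63, adjusted p = 0.027) or young mouse 10 (0.58, adjusted p = 0.0468), by limma-voom (0.62, adjusted p = 0.0292) and with the GC offset (0.57, adjusted p = 0.035), and the length correction turned it to -0.11 (adjusted p = 0.568). Its log2 ratio to Rps27 was 0.52 ± 0.81 (SD, n = 6) in young and 1.25 ± 0.43 (SD, n = 6) in aged mice, a difference of 0.74 (exact permutation p = 0.0866, adjusted p = 0.0866). Without young mouse 2 it was 0.90 (adjusted p = 0.0411), and without young mice 5 and 6 it was 0.24 (adjusted p = 0.362). Young mice 5 and 6 had the lowest ratios, -0.66 and -0.29. Since most of Rps27 could not be counted, the size of this ratio is not that of the mRNAs. In the other 3 pairs, Rpl39l, Rpl3l and Rpl10l had at most 33 counts over all libraries, against 2897, 3045 and 7969 of Rpl39, Rpl3 and Rpl10. These common forms were higher in aged mice, with log2 fold changes of 0.95, 0.67 and 0.63 (adjusted p = 0.000937, 0.00332 and 0.000532), and of 0.28, 0.43 and 0.20 with the length correction, all still called.

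**Figure D4:**
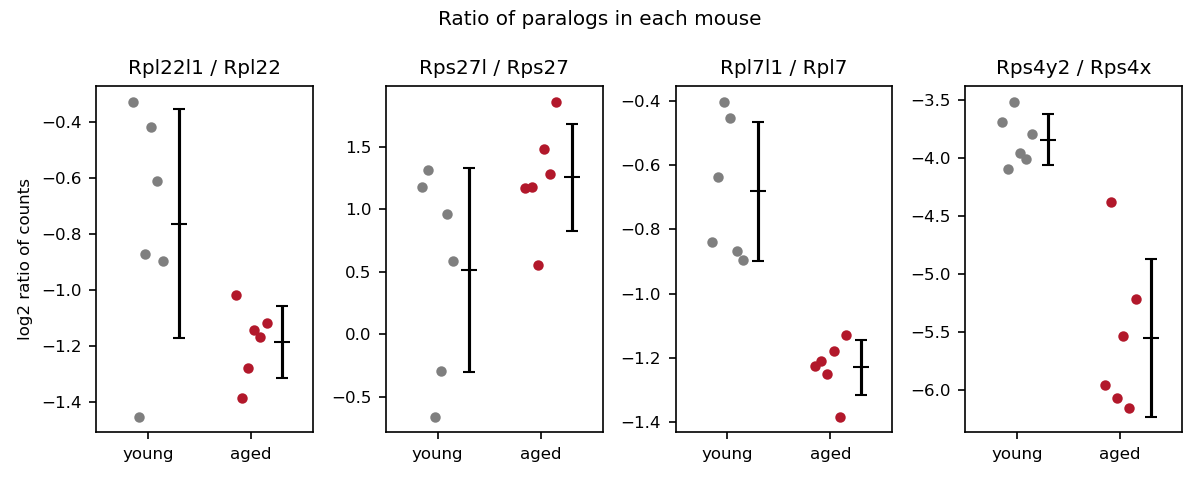
Log2 ratio of counts (y axis, pseudocount 0.5) of the 4 tested pairs of paralogs in each young (grey) and aged (red) mouse, with the mean and SD beside the points. The ages do not overlap for Rpl7l1 to Rpl7 and for Rps4y2 to Rps4x, and they overlap for the other pairs.

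Although their proteins are needed in nearly equal amounts, the counted levels differed widely. Per kb of exon, Rps9 had the highest mean level over the 12 mice, 461 CPM, followed by Rps14 with 227 CPM and Rplp2 with 176 CPM. The lowest tested gene, Rpl21, stood at 1.77 CPM per kb, so the tested genes span 260-fold. Rps9 was at 144 to 278 CPM (median 244) in young and 339 to 485 CPM (median 446) in aged mice, at a log2 fold change of 0.94 (SE 0.16, adjusted p = 0.000433), or 0.48 corrected for length. Fragments were counted only at a mapping quality of at least 60, and how far this drops those that fit several places depends on the aligner. In GENCODE M21 transcripts, 81 of the 84 genes share at least 1 stretch of 50 bases with another gene, and the share of such stretches had a median of 34.0% and reached 85.5% in Rpl36a. Across the 84 genes, Spearman's rho of this share with the level per kb was -0.06, and across the 78 tested genes its rho with the log2 fold change was 0.06. Transcripts do not hold all copies in the genome, so this measures only part of the shared sequence. The log2 fold change was not tied to the level either (rho of -0.03 over the 78 genes).

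**Figure D5:**
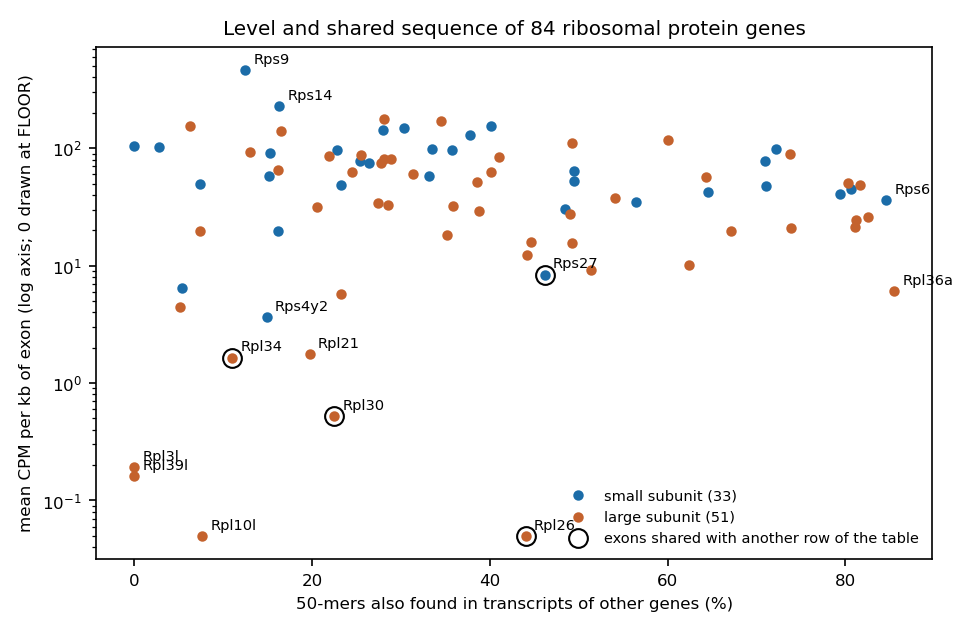
Mean CPM per kb of exon over the 12 mice (y axis, log scale, with levels of 0 drawn at 0.05) and the percentage of a gene's 50-base stretches found in transcripts of other genes (x axis) for the 84 ribosomal protein genes. Circles mark Rps27, Rpl26, Rpl30 and Rpl34, which share exons with another row of the table and lie at 8.39, 0, 0.53 and 1.64 CPM per kb.

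Other TOP mRNAs and ribosomal genes outside the name rule moved in the same direction. Of 20 such genes, most of them of translation but with Vim, an intermediate filament gene, among them, 19 were tested, 17 (89.5%) were higher in aged mice, against 22.4% of all genes tested, and 2 were not called, with a median log2 fold change of 0.60. Among them, Tpt1, which encodes a translationally controlled protein, had a log2 fold change of 0.80 (SE 0.12, adjusted p = 0.000204). After the length correction 16 of the 19 (84.2%) were higher, against 18.3% of all genes. Mitochondrial ribosomal proteins, which build a separate ribosome, moved less together. Of 72 tested, 31 (43.1%) were higher and 2 (2.78%) lower, against 22.4% and 23.0% of all genes tested, with a median of 0.41. Without the length correction Mrps34 (0.78, adjusted p = 0.00522) and Mrpl54 (0.77, adjusted p = 0.00264) rose most, and Mrps25 (-1.12, adjusted p = 0.000302) and Mrps15 (-0.31, adjusted p = 0.0243) fell. With it, neither of these was called (0.38, adjusted p = 0.13, and 0.20, adjusted p = 0.381), while Mrps25 (-0.84) and Mrps15 (-0.71) were still lower. In all, 8 of the 72 (11.1%) were then higher and 5 (6.94%) lower, against 18.3% and 16.5% of all genes, with a median of 0.07.

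Genes that control ribosomal protein synthesis showed no common direction. Of 21 tested, 3 (14.3%) were higher, 6 (28.6%) lower and 12 not called, against 22.4% and 23.0% of all genes tested, with a median log2 fold change of -0.07. Rps6kb1, the main S6 kinase, fell the most (-0.83, SE 0.11, adjusted p = 5.84e-05), followed by Tsc1, an inhibitor of mTOR signalling (-0.66, SE 0.14, adjusted p = 0.00196). Eif4ebp1, a repressor of cap-dependent translation that mTOR inactivates, was higher (0.61, SE 0.15, adjusted p = 0.00383), as was Rheb, an activator of mTOR (0.28, SE 0.08, adjusted p = 0.0102). The other 4 called lower, named after their values were seen, were Mtor (-0.38, adjusted p = 0.000277), its partner Rptor (-0.40, adjusted p = 0.0125), Larp1 (-0.45, adjusted p = 0.00615) and Ubtf (-0.25, adjusted p = 0.00743), a factor for rRNA synthesis. After the length correction 3 (14.3%) were higher and 2 (9.52%) lower, against 18.3% and 16.5% of all genes. Of the genes named here, Rps6kb1 was then still lower (-0.42, adjusted p = 0.00188), and Tsc1 (-0.27), Eif4ebp1 (0.25), Rheb (0.07), Mtor (0.08), Rptor (-0.06), Larp1 (-0.14) and Ubtf (-0.07) were not called. Of 10 proliferation genes, Mki67 (-2.01, SE 0.29, adjusted p = 0.000134) and Top2a (-0.62, SE 0.22, adjusted p = 0.0315) were lower in aged mice and the other 8 were not called, so 20% were lower, against 23.0% of all genes tested. Of the first pair, Mki67 was still lower after the length correction (-1.46) and Top2a was not called (-0.41, adjusted p = 0.121).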

How the data were processed

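Total RNA of sorted M-MDSCs was sequenced in pairs from stranded libraries. The deposited counts are whole fragments per gene, obtained by the authors with featureCounts 2.0.0 over the exons of a UCSC annotation of mm10, reverse-stranded, with a minimum mapping quality of 60 and both ends on the same chromosome. Which aligner was run is not given in the sources used here. No column was left unused. Length is the authors' exonic length.

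The counts were analysed with edgeR 4.0.16 in R 4.3.3 (filterByExpr, TMM, quasi-likelihood test over all 12 mice, Benjamini-Hochberg adjustment over all 9742 genes tested, threshold 0.05). The fit was also run on simulated counts that held no trend with exonic length, so that run does not cover the trend found here. SEs follow from the fold change and F statistic. The length correction is a lowess curve (span 0.3) of each library's deviation. Alternatives were DESeq2 1.42.0, limma-voom (limma 3.58.1), other scalings, filters, offsets, thinning and left-out mice. Shared stretches came from GENCODE M21.

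The named genes were the 4 largest and 4 smallest log2 fold changes and the 2 smallest p-values of each subunit, the 3 highest and 3 lowest levels per kb, the paralogs, genes of known special roles, and the genes not called, called against the majority or not tested. From each list of other genes, the 2 largest rises and falls were named. A few genes that these rules pick are not reported here. The members and lists were chosen with earlier results of these data known. Mice are the replicates, and counts without molecular identifiers limit mainly genes of few fragments.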

Additional observations from a re-analysis of the deposited data

Results flagged for a closer look

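Among 74 sets of 6 values (each named gene, the summed level and each ratio of paralogs, by age), 5 held a mouse far from the others, measured as its gap to the nearest mouse over the whole range and set against Dixon's critical value. Chance gives about 1 in 20 such sets. All 5 were in aged mice. Rps4y2 was at 5.36 CPM in aged mouse 2 and 1.497 to 2.38 CPM in the other 5 (ratio 0.771). Rpl15 was at 21.4 CPM in aged mouse 1 and 13.2 to 15.1 CPM in the others (ratio 0.76). Rpl5 was at 25.9 CPM in aged mouse 5 and 34.1 to 37.3 CPM in the others (ratio 0.719). Rpl13a was at 84.8 CPM in aged mouse 7 and 108 to 121 CPM in the others (ratio 0.645). The summed level of all ribosomal protein genes was 4482 CPM in aged mouse 7 and 5194 to 5545 CPM in the others (ratio 0.67).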

How the results depend on the processing

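Of the 74 genes called higher, 73 were called in each of the 12 fits without a mouse, 69 in every fit other than those with a length offset, and 57 in all fits. Over the named genes, 852 values in other fits kept direction and side of the threshold, 24 lost the call, 12 gained it and 7 changed sign. With the length offset, 2 genes were lower, the median relative to all genes was 0.37 and the small minus large difference of medians was -0.041 (0.038 without it). With the curve fitted without ribosomal protein genes, added after seeing the data, 64 were higher, 2 lower and the relative median was 0.41. Under the first offset Rps27l (-0.11), Rpl22l1 (-0.26), Rpl17 (-0.0595) and Rpl7a (-0.0043) changed sign, and under the second Rps27l (-0.054), Rpl22l1 (-0.21) and Rpl17 (-0.027). The GC offset (from transcripts, for 99.4% of genes, since no genome was given) also came after seeing the data.

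The replicate block, over the 4 numbers found in both ages, gave 0 genes lower, 75 higher and a relative median of 1.16, and the same 8 mice without it gave 0 lower and 75 higher. Deviations of same-numbered mice correlated at -0.26 to -0.07, so the same number did not pair mice across the ages. For paralogs the block gave -0.67 for Rpl7l1 to Rpl7 and -1.70 for Rps4y2 to Rps4x (exact permutation, adjusted p = 0.25 each, in a design of 4 pairs that cannot reach 0.05). Without single mice, 0 to 1 genes were lower (0 without aged mouse 6), the ratio of Rpl22l1 to Rpl22 differed by -0.56 (without young mouse 2) to -0.34 and that of Rps27l to Rps27 by 0.50 to 0.90 (the latter without young mouse 2, adjusted p = 0.0411). The former was called with a pseudocount of 5 (-0.45, adjusted p = 0.0144) and with the length offset (-0.97, adjusted p = 0.00866). Leaving out pairs of young mice was added after seeing the data. Without young mice 1 and 2, 0 genes were lower, and both ratios were called (-0.49 and 1.10, adjusted p = 0.00952 and 0.0143), while without young mice 5 and 6 neither was (-0.36 and 0.24, adjusted p = 0.14 and 0.362), nor without young mice 9 and 10 (-0.42 and 0.87, adjusted p = 0.11 each). Without young mice 9 and 10, 0 genes were lower. The cause of these changes was not tested. Depth limits Rpl21 and Rpl36a, whose lowest library had 4 and 5 counts.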
